A study of Mus musculus with 21 samples.

Results

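The 10 genes followed here are used to mark and study hematopoietic stem cells (HSCs): Mecom, Hlf, Procr, Slamf1, Fgd5, Hoxb5, Mllt3, Ctnnal1, Tek and Cd34. They were measured in 21 RNA-seq libraries of a mouse model of juvenile myelomonocytic leukemia (JMML), and all 10 were found by the Ensembl gene ID of their symbol among the 45706 genes of the count tables. HSCs sit at the top of blood formation, divide rarely and give rise to multipotent progenitors, which lose self-renewal as they commit to the myeloid, lymphoid and erythroid lineages. In the mouse bone marrow they are contained in the LSK compartment (lineage-negative, Sca+ and cKit+), of which they form a small share, the rest being multipotent progenitors. The genes fall into nuclear regulators (Mecom, a zinc finger factor needed for HSC maintenance, Hlf, a PAR bZIP factor, Hoxb5, a homeobox factor of long-term HSCs, and Mllt3, a chromatin reader of the elongation machinery), surface proteins (Procr, the endothelial protein C receptor, Slamf1, the CD150 antigen used in HSC sorting, Tek, the angiopoietin receptor, and Cd34, a sialomucin that in the mouse is low on long-term HSCs and higher on progenitors) and cytoplasmic proteins (Fgd5, a guanine nucleotide exchange factor, and Ctnnal1, alpha-catulin).

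In the GRCm38 annotation all 10 are protein-coding genes. The nuclear regulators lie with Mecom (ENSMUSG00000027684) at chr3:29951296-30548008, Hlf (ENSMUSG00000003949) at chr11:90336536-90390895, Hoxb5 (ENSMUSG00000038700) at chr11:96303336-96306121 and Mllt3 (ENSMUSG00000028496) at chr4:87769925-88033364. The surface proteins are encoded by Procr (ENSMUSG00000027611) at chr2:155751117-155755471, Slamf1 (ENSMUSG00000015316) at chr1:171767127-171801184, Tek (ENSMUSG00000006386) at chr4:94739289-94874976 and Cd34 (ENSMUSG00000016494) at chr1:194938819-194961279. The genes of the cytoplasmic proteins are Fgd5 (ENSMUSG00000034037) at chr6:91978878-92076004 and Ctnnal1 (ENSMUSG00000038816) at chr4:56810935-56865188.

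Reference sequence upstream of 4 members is shown because these are the genes called in the 2 LSK comparisons with MxCre controls for which the table held a promoter. RefSeq promoters (assembly GRCm38.p6) were matched for 9 of the 10 genes, giving 11 promoters, and the name not matched was Hoxb5. The stretches run 5′ to 3′ on the gene's strand, from 250 bases before the annotated start up to the first annotated exon base, in lower case, with each match to the E-box letters CANNTG in capitals. The Hlf stretch is chr11:90390918-90391167 (minus strand), the Fgd5 stretch chr6:91978715-91978877 (plus strand), the Slamf1 stretch chr1:171766882-171767126 (plus strand) and the Mecom stretch, upstream of a start inside the gene, chr3:30509823-30510009 (minus strand).
Hlf: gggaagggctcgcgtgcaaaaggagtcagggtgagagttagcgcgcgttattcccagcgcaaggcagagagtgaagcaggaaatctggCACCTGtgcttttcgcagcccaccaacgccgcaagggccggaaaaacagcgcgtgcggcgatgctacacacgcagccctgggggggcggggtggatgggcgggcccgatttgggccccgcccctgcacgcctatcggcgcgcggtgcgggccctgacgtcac
Fgd5: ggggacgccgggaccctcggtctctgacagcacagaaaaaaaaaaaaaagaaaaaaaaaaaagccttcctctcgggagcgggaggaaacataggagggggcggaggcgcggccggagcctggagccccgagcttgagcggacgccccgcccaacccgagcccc
Slamf1: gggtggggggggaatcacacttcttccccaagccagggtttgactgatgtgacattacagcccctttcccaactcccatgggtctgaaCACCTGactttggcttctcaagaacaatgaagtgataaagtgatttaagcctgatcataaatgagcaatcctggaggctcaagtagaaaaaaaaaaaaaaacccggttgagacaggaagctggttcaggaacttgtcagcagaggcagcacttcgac
Mecom: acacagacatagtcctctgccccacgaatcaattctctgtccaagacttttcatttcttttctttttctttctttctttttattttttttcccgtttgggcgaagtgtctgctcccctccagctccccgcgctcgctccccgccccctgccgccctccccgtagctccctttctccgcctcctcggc
CANNTG, searched on both strands in the 250 bases before each start, was present in 7 of the 11 promoters of the members and in 66.2% of all 32851 promoters in the table. The letters AGATAA, known as a motif of GATA factors, were in 9.99% of all promoters in the table, searched the same way, and in 0 of the 11 of the members. For TGTGGT, a motif of RUNX factors, the share was 14.0% against 0 of the 11 promoters. The core of ETS factor sites, searched as CCGGAAG, was in 6.91% of all promoters and again in 0 of 11. TTACNTAA, a motif of PAR bZIP factors such as Hlf, was in 2.06% of all and 0 of 11. These are matches of letters only, and no binding was measured here.

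The libraries came from 3 cell populations: LSK cells sorted from bone marrow, CD11b+ myeloid cells from bone marrow and CD11b+ cells from spleen. Each population had 2 libraries from MxCre mice, which carry Cre recombinase under the inducible Mx promoter and no mutant allele, 2 from Ptpn11D61Y/+ mice, which carry the mutant allele of the phosphatase SHP2 silenced by a Neo-Stop cassette and no Cre, and 3 from terminally ill MxCre;Ptpn11D61Y/+ mice in which Cre had switched the mutant allele on (called S3). According to the study's methods all mice, the controls too, received poly I:C to induce the Mx promoter, whereas the labels list no treatment, and the age of the mice of each library is not given in the sources used here, beyond S3 being a late stage, months after the injections. The methods speak of 3 mice per genotype, while the labels used here give 2 libraries for each control, and S3 libraries from animals 540, 815 and 768 for LSK and 540, 815 and 640 for both CD11b+ fractions. The Mx promoter responds to interferon in many cell types. The paper describes the mutation as expressed in the hematopoietic system, and switching of the allele in other cells was not measured here. Total counts per library ranged from 34992610 to 104509425, with 68319460 to 104509425 in LSK.

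Markers were checked against the labelled populations. Kit, the receptor used to sort LSK cells, had 27623 to 75817 raw counts in LSK and at most 4452 in any CD11b+ library. Itgam, which encodes CD11b, had 3775 to 13942 counts in LSK and 4632 to 141277 in CD11b+ libraries, and these raw ranges overlap. After the TMM scaling used below, every CD11b+ library lay above every LSK library for Itgam. Scaled by total counts alone, the ranges still overlapped. Ly6a, which encodes Sca-1, the other antigen of the LSK sort, had 4468 to 9711 counts in LSK and 270 to 15615 in CD11b+ libraries. It did not separate the populations in raw counts or after TMM scaling. These counts are not scaled to depth. Some libraries stood apart or went against their labels by Xist, made from the inactive X chromosome of females, and Ddx3y, made from the Y chromosome. In LSK, the MxCre, Ptpn11D61Y/+ and S3 540 libraries had 4619 to 7357 Ddx3y counts and at most 17 Xist counts, whereas S3 815 and S3 768 had 39460 and 88850 Xist counts and 0 Ddx3y counts. The library of animal 540 carried 1 Xist and 5083 Ddx3y counts in LSK but 2780 Xist and 173 Ddx3y counts in its bone marrow CD11b+ library and 712 and 1275 in its spleen library, so its libraries do not all look like tissue of 1 male. Bone marrow CD11b+ MxCre 2 also held both transcripts, with 2834 Xist and 353 Ddx3y counts, and spleen CD11b+ Ptpn11D61Y/+ 1 held 4753 Xist and 0 Ddx3y counts. In LSK the sex transcripts were partly tied to genotype, since S3 815 and S3 768 alone lacked Ddx3y counts. Results in LSK are therefore given below with and without S3 815 and S3 768. This matches the sex transcripts but keeps S3 540 as the only S3 library, and it does not settle the labels of animal 540.

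In LSK cells of diseased mice, the question was whether the stem cell genes differed from the MxCre controls. Of the 10 members, 3 were lower in S3 than in MxCre (Fgd5, Hlf and Mecom) and 0 were higher, with edgeR's quasi-likelihood test and Benjamini-Hochberg adjustment over all 18057 genes tested. Over all genes, 14.8% were called lower in the same comparison (2676 lower and 2988 higher). The split of the calls moved with the scaling, to 2154 higher of 5595 with RLE factors and 2046 of 5307 with library size alone. The median log2 fold change of the 10 members was -0.25, against 0.01 for all genes. Levels are given as CPM (a gene's counts scaled to the depth of its library) after TMM scaling over the 21 libraries.

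Fgd5 was measured at 21.5 and 22.3 CPM in MxCre, 37.5 and 29.8 in Ptpn11D61Y/+ and 7.37, 4.18 and 2.56 in S3 540, 815 and 768. All S3 libraries lay below all control libraries, and the mean fell from 21.9 ± 0.569 (SD, n = 2) in MxCre to 4.70 ± 2.45 CPM (SD, n = 3) in S3, a log2 fold change of -2.22 (SE 0.436, adjusted p = 0.0177, edgeR's quasi-likelihood test). Hlf was present at 164 and 159.5 CPM in MxCre, 196 and 198 in Ptpn11D61Y/+ and 91.0, 60.2 and 43.1 in S3 540, 815 and 768. The 3 genotypes did not overlap for Hlf, and S3 against MxCre gave -1.32 on the log2 scale (SE 0.295, adjusted p = 0.0228, edgeR's quasi-likelihood test). Mecom had 34.0 and 31.9 CPM in MxCre, 57.6 and 47.1 in Ptpn11D61Y/+ and 22.4, 17.8 and 11.6 in S3 540, 815 and 768. Again the genotypes were separate, with S3 lowest, and the difference from MxCre was -0.93 on the log2 scale (SE 0.265, adjusted p = 0.0436, edgeR's quasi-likelihood test). An antisense gene overlaps exons of Mecom on the other strand, as Gm16897 does for Cd34, and whether the counting used strand is not given in the sources used here.

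Procr came near the threshold. It was at 29.5 and 24.6 CPM in MxCre, 48.0 and 42.4 in Ptpn11D61Y/+ and 12.5, 6.83 and 3.76 in S3 540, 815 and 768, a log2 fold change of -1.81 against MxCre (SE 0.501, adjusted p = 0.0504, edgeR's quasi-likelihood test). DESeq2, limma-voom, RLE factors, library size alone and both controls taken as 1 group each called it lower, while leaving out the filter on low counts did not. For Cd34 the values were 434 and 499.9 CPM in MxCre, 336 and 379 in Ptpn11D61Y/+ and 409.8, 391 and 384 in S3, which places the S3 libraries between both controls (-0.24 against MxCre, adjusted p = 0.0797, same test). The other 5 members had log2 differences between -0.26 (Mllt3) and 0.19 (Slamf1), and their S3 libraries overlapped those of MxCre. Without overlap, S3 lay below MxCre for 5 of 10 members and above for 0, against 29.9% and 30.7% of all genes. As these are bulk samples, fewer cells of a type and less RNA per cell cannot be told apart.

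The calls in this comparison depended on the libraries and the fit. The share of all genes called lower is not given for each of these settings, so the member counts cannot be read alone. With no filter on low counts, Fgd5 was still called lower, while Hlf and Mecom were not. In 1 fit over all 21 libraries, which takes the wider spread of the CD11b+ libraries into the estimate, 0 of the 10 members and 6 genes in all were called, and without MxCre 1, MxCre 2 or S3 815 it was 0 members each, against 4 without S3 768 and 6 without S3 540. Leaving out MxCre 1 or MxCre 2, which leaves a group of 1 library, also cut the calls over all genes from 5664 to 1284 and 1918. With S3 540 alone in the S3 group, which leaves out both libraries with Xist counts, tests assume that the remaining library varies like the others. The log2 CPM differences of S3 540 from the MxCre mean were -1.56 for Fgd5, -1.10 for Procr, -0.83 for Hlf, -0.55 for Mecom and -0.51 for Tek. They were -0.30 for Hoxb5, -0.19 for Cd34, 0.0017 for Ctnnal1, 0.03 for Mllt3 and 0.38 for Slamf1.

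**Figure D1:**
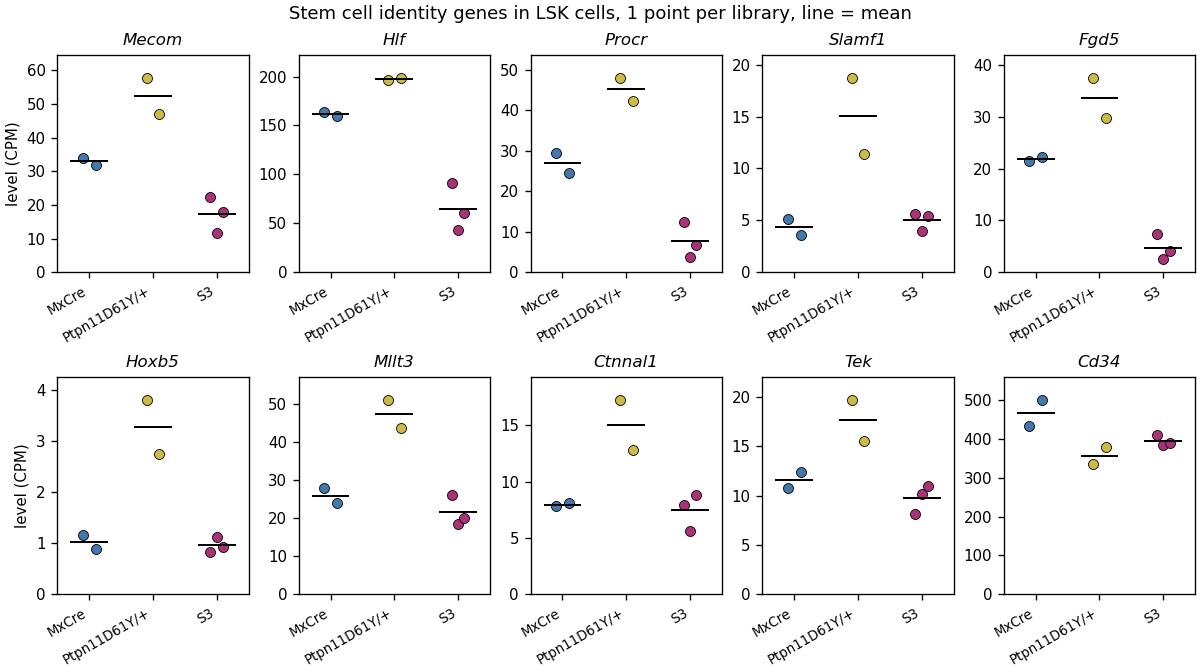
Levels of the 10 members in the 7 LSK libraries, in CPM on linear axes from 0, with 1 panel per gene, 1 point per library by genotype and a line at each mean. Fgd5, Hlf, Mecom and Procr show 3 separate groups with S3 lowest, while for Slamf1 and Hoxb5 the Ptpn11D61Y/+ libraries stand above both other groups.

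The 2 control genotypes were compared with each other next, since both lack an active mutant allele by design but differ in Ptpn11: with 1 allele blocked by the cassette, Ptpn11D61Y/+ mice have a single working Ptpn11 allele, and MxCre mice have both. Slamf1 and Hoxb5 were higher in Ptpn11D61Y/+ than in MxCre LSK cells, so 2 of 10 members were called higher, against 0.498% of all genes (90 higher and 276 lower of 18057). Slamf1 was at 5.13 and 3.58 CPM in MxCre, 18.7 and 11.3 in Ptpn11D61Y/+ and 5.58, 5.40 and 3.97 in S3 540, 815 and 768. Its Ptpn11D61Y/+ libraries were the highest of the 7, at a log2 fold change of 1.79 over MxCre (SE 0.300, adjusted p = 0.0365, edgeR's quasi-likelihood test). Hoxb5, the least abundant member, was at 1.15 and 0.884 CPM in MxCre, 3.79 and 2.74 in Ptpn11D61Y/+ and 0.817, 0.927 and 1.11 in S3 540, 815 and 768. It differed by 1.68 on the log2 scale (SE 0.276, adjusted p = 0.0322, edgeR's quasi-likelihood test), and an antisense gene overlaps its exons too.

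Among the other members, Mllt3 and Ctnnal1 came near the threshold. Mllt3 had 27.9 and 23.9 CPM in MxCre against 51.1 and 43.7 in Ptpn11D61Y/+ (0.87 on the log2 scale, adjusted p = 0.0558, edgeR's quasi-likelihood test), and Ctnnal1 7.84 and 8.10 against 17.2 and 12.9 (0.92, adjusted p = 0.0844). Mecom, Procr, Fgd5, Tek and Hlf had log2 differences of 0.67, 0.74, 0.62, 0.61 and 0.28, and Cd34 of -0.39, with adjusted p between 0.0958 and 0.700. Taken by range alone, both Ptpn11D61Y/+ libraries lay above both MxCre libraries for 9 of 10 members and below for Cd34, against 29.4% and 30.2% of all genes. The median log2 fold change was 0.70 over the members and -0.00 over all genes.

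Leaving out any 1 of the 4 control libraries leaves 1 library in its group, whose spread is then taken from the other groups, and the calls fell from 366 to between 2 and 13 of all genes, with 0 members among them. The log2 fold changes then lay between 1.37 and 2.12 for Slamf1 and between 1.42 and 1.91 for Hoxb5. The fit over all 21 libraries gave 0 members and 12 genes. DESeq2 called 6 members among 1536 genes (Cd34 lower, and Slamf1, Hoxb5, Mllt3, Ctnnal1 and Tek higher), and limma-voom 1 member, Hoxb5, among 330 genes.

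Because the control genotypes differed, S3 was also set against Ptpn11D61Y/+. In LSK cells 9 of the 10 members, all but Cd34, were lower in S3 than in Ptpn11D61Y/+, against 17.1% of all genes called lower (3095 lower of 6807 called, with 3712 higher, or 2676 higher of 6441 with RLE factors and 2730 of 6165 with library size alone). Fgd5 and Procr had the largest differences among the members, at -2.84 (SE 0.441, adjusted p = 0.00779) and -2.55 (SE 0.507, adjusted p = 0.0174) on the log2 scale by edgeR's quasi-likelihood test. For the nuclear regulators the log2 fold changes were -1.78 (Hoxb5), -1.61 (Hlf), -1.60 (Mecom) and -1.13 (Mllt3), with adjusted p between 0.00235 and 0.0107. Slamf1, Ctnnal1 and Tek differed by -1.59, -1.01 and -0.85 (adjusted p = 0.00465, 0.00806 and 0.00619, edgeR's quasi-likelihood test). Cd34 was the exception, at 0.14 (adjusted p = 0.256). The members' median was -1.60, against 0.05 over all genes, and 9 members lay below Ptpn11D61Y/+ without overlap, against 28.9% of genes. Markers of other cells also differed between these groups, as given below.

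This contrast shares its S3 libraries with the first and its Ptpn11D61Y/+ libraries with the second, so the 3 sets of values are not independent. When 1 S3 library was left out, 8 (without S3 815) or 9 members were called. Fewer were called when a Ptpn11D61Y/+ library was left out, which leaves a group of 1. In the fit over all 21 libraries, 0 members were among the 19 genes called. S3 540 alone also lay below both Ptpn11D61Y/+ libraries for 9 members.

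**Figure D2:**
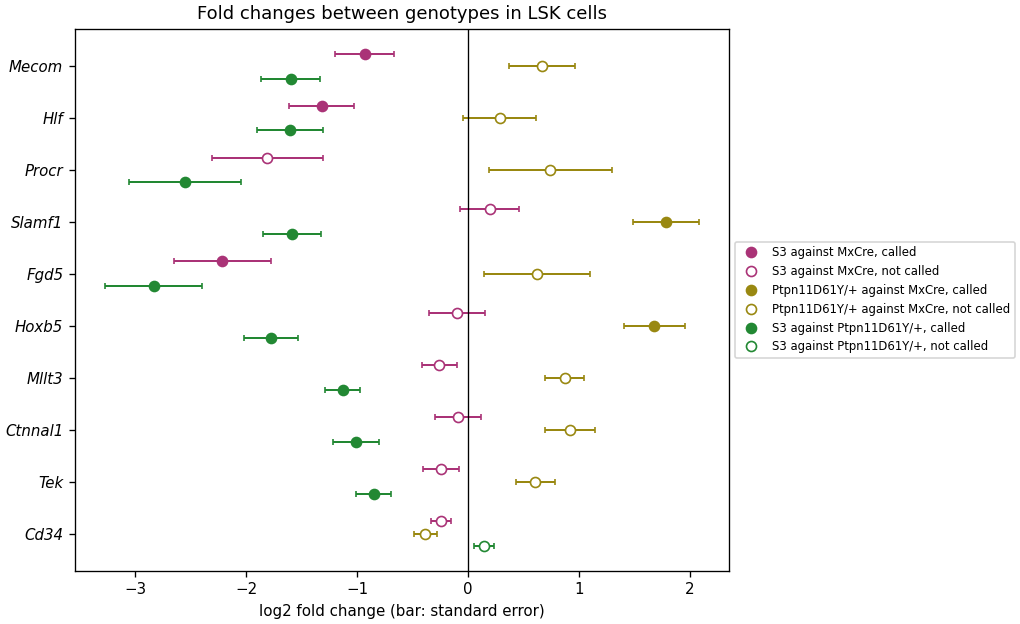
Log2 fold changes of the 10 members in LSK cells with their standard errors, for S3 against MxCre, Ptpn11D61Y/+ against MxCre and S3 against Ptpn11D61Y/+, with calls at an adjusted p below 0.05 marked. Values for S3 against Ptpn11D61Y/+ are negative for all members except Cd34, whereas those against MxCre reach from -2.22 for Fgd5 to 0.19 for Slamf1.

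Set per kilobase of exon in MxCre LSK cells, the mean levels of the members ran from 64.1 CPM per kb for Cd34, 24.2 for Hlf and 13.3 for Procr, through 3.47 for Fgd5, 2.65 for Mecom, 2.45 for Tek and 2.16 for Mllt3, to 1.04 for Ctnnal1, 0.707 for Slamf1 and 0.366 for Hoxb5. Cd34 and Hlf thus made up most of the summed member level, which was 736 and 787 CPM in MxCre, 786 and 783 in Ptpn11D61Y/+ and 592, 526 and 484 in S3 540, 815 and 768. The order of the genotypes in LSK was Ptpn11D61Y/+, MxCre, S3 with no overlap for Fgd5, Hlf, Mecom and Procr. For Slamf1, Hoxb5, Mllt3, Ctnnal1 and Tek, MxCre and S3 could not be ordered, since their libraries overlapped. Cd34 alone ran from MxCre through S3 to Ptpn11D61Y/+.

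Further stem cell genes, in lists that do not hold the 10 members, were lower in S3 in part. Of 12 other HSC surface markers, 7 were lower and 0 higher in S3 than in MxCre LSK cells (median -0.66), among them Robo4 (-2.17) and Emcn (-2.13), proteins of HSCs and vessels, and Esam (-1.08). Of 16 other HSC transcription factors, 8 were lower and 2 higher (median -0.40), with Nkx2-3 at -3.01, Prdm16 at -1.90 and Zfp521 at -1.15 on the lower side and Gfi1b, a factor of the erythroid and megakaryocyte lineages, at 0.91 on the higher. Of 12 genes of quiescent HSCs, 4 were lower and 1 higher (median -0.50), including the cell cycle inhibitor Cdkn1c (-1.76), Gprasp2 (-1.74) and Ifitm1 (-1.25), while Vwf, also a megakaryocyte gene, was higher (1.27). Against Ptpn11D61Y/+, 9 of 12, 10 of 16 and 9 of 12 genes of these lists were lower in S3 and 0 were higher. Between the controls, 0, 2 and 2 genes of the lists were higher in Ptpn11D61Y/+, among them Gata2 (0.60), Vwf (2.20) and Trpc6 (1.60).

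Genes of progenitors did not move as 1 block. Of 9 myeloid-primed progenitor genes, 7 were higher and 0 lower in S3 than in MxCre (median 1.17), such as Ms4a3 (2.01), Ctsg (1.63), the myeloperoxidase gene Mpo (1.54) and Elane (1.52), and their summed level was 2212 and 1846 CPM in MxCre, 2848 and 2812 in Ptpn11D61Y/+ and 5142, 4799 and 6487 in S3 540, 815 and 768. Of 10 proliferation genes, 9 were higher and 0 lower (median 0.71), with Ccnb1 at 0.96 and Plk1 at 0.79. By contrast, 4 of 8 genes of multipotent and lymphoid-primed progenitors were lower and 1 higher (median -0.54), among them Flt3 (-0.81) and Notch1 (-0.79). Against Ptpn11D61Y/+, 5 of 9 myeloid-primed and 10 of 10 proliferation genes were again higher in S3 and 0 lower. The multipotent and lymphoid-primed list turned with the control, with 4 of 8 genes higher and 0 lower in S3 than in Ptpn11D61Y/+ (median 0.28). In Ptpn11D61Y/+ against MxCre, 3 of these 8 genes were lower (Notch1, Dntt and Satb1), as was 1 of the 10 proliferation genes, Mki67 (-0.57), and 0 of the 9 myeloid-primed genes were called (median 0.49). These counts stand beside 2988 genes called higher and 2676 called lower of 18057 in S3 against MxCre. With S3 540 alone, 5 of 12 surface markers, 8 of 16 transcription factors, 4 of 12 quiescence genes (median 0.03) and 4 of 8 multipotent and lymphoid genes were lower, 9 of 10 proliferation genes were higher, and the myeloid-primed genes had 4 higher and 1 lower, whereas in the fit over all 21 libraries 0 genes of these lists were called.

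**Figure D3:**
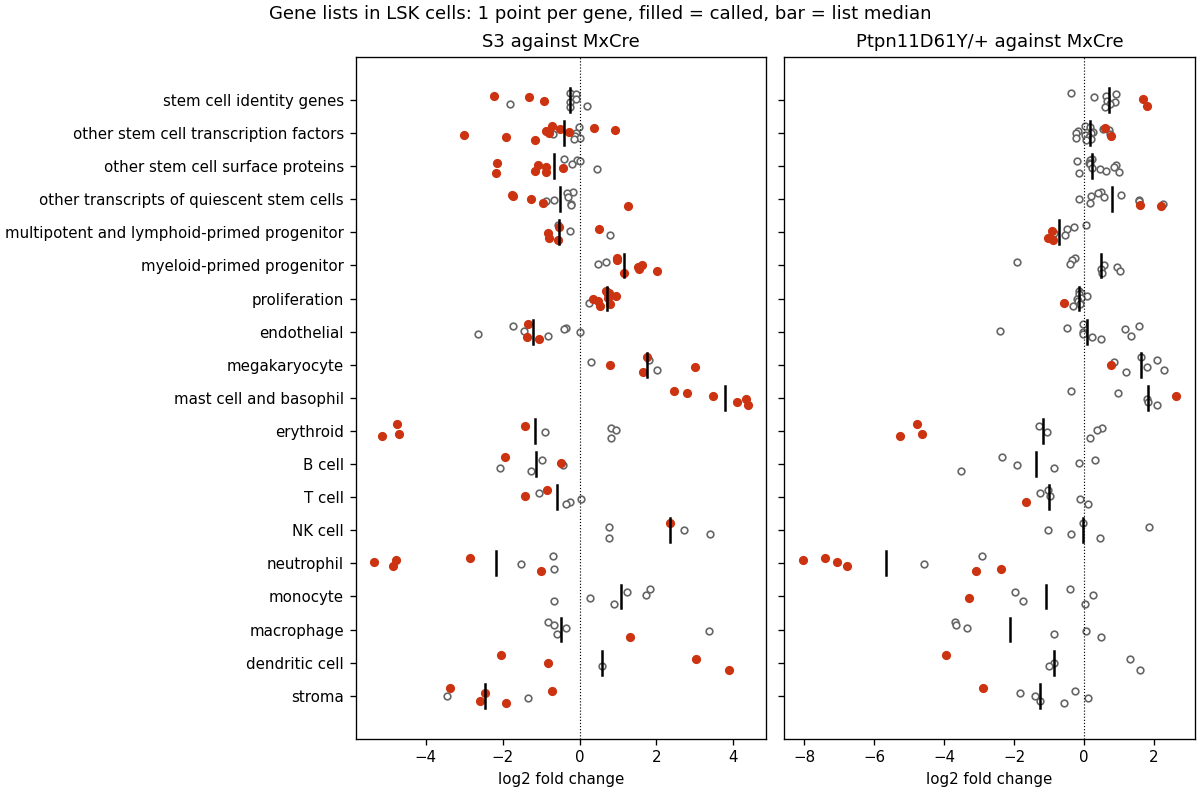
Log2 fold changes in LSK cells for the members and for each gene list, S3 against MxCre and Ptpn11D61Y/+ against MxCre, with 1 point per gene, filled where called, and a bar at the list's median. Medians in S3 against MxCre are 1.17 for myeloid-primed genes and 0.71 for proliferation genes, and -0.66 for HSC surface markers.

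Markers of other cells that a sort can carry along moved with the genotype in LSK as well, and their part in the results above was not tested. Of 8 neutrophil markers, 5 were lower in S3 and 6 in Ptpn11D61Y/+ than in MxCre. Their summed level was 2711 and 2253 CPM in MxCre, 248 and 177 in Ptpn11D61Y/+ and 677, 1423 and 913 in S3 540, 815 and 768, with S100a9 the most abundant and 0 markers at 0. All 6 mast cell and basophil markers were higher in S3 (median 3.78), and the sum rose from 53.7 and 47.2 CPM in MxCre to 1128, 629.5 and 719 in S3 540, 815 and 768, led by Prss34 and with 111 and 238 in Ptpn11D61Y/+. Of 7 megakaryocyte markers, 4 were higher in S3 (146 and 152 CPM in MxCre, 303 and 247 in Ptpn11D61Y/+ and 343, 242 and 355 in S3, mostly Itga2b). Endothelial markers matter here because Tek, Procr, Fgd5 and Cd34 are also made by vessel cells: 3 of 10 were lower in S3, and their sum, led by Tie1, was 162 and 178 CPM in MxCre, 214 and 203 in Ptpn11D61Y/+ and 114, 93.3 and 87.0 in S3 540, 815 and 768, with Sox17 at 0 in S3 540. Stromal markers, at 41.6 and 32.0 CPM in MxCre, were at 24.6 and 7.74 in Ptpn11D61Y/+ and 7.28, 5.85 and 8.06 in S3, with 5 of 7 called lower in S3 and 1 (Col1a1) in Ptpn11D61Y/+. Against Ptpn11D61Y/+, 6 of 10 endothelial and 1 of 7 stromal markers were lower in S3 and 0 higher (endothelial median -1.55). In that contrast 8 of 8 neutrophil, 5 of 6 macrophage and 5 of 6 mast cell and basophil markers were higher and 0 lower. The neutrophil markers thus went the other way than against MxCre.

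Further marker lists of blood cells were also counted in S3 against MxCre LSK cells. Lower genes were 4 of 8 for erythroid cells (Hbb-bs at -5.13, Alas2 at -4.75 and Hba-a1 at -4.70), 2 of 6 for B cells and 2 of 6 for T cells, each with 0 higher, although with S3 540 alone 2 erythroid genes were called higher and 0 lower. Higher genes were 1 of 5 for NK cells and 1 of 6 for macrophages, with 0 lower. Dendritic cell markers split into 2 higher and 2 lower of 5, one of the latter being Flt3, which also stands in the progenitor list, and 0 of 6 monocyte markers were called. In Ptpn11D61Y/+ against MxCre, 3 of 8 erythroid markers were lower (Hbb-bs at -5.25, Alas2 at -4.76 and Hba-a1 at -4.62), and their sum was 1209 and 649 CPM in MxCre and 122 and 107 in Ptpn11D61Y/+. In the same comparison 1 gene was lower among each of the T cell (Cd5), monocyte (Fcgr1) and dendritic cell (Cd209a) markers, 1 was higher among each of the mast cell and basophil (Fcer1a) and the megakaryocyte (Itga2b) markers, and 0 were called for B cells, NK cells, macrophages and endothelium.

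The genes closest to the members in pattern were found by correlating each of 9281 expressed genes with the mean standardized level of the 10 members. Over the 7 LSK libraries these were Gorab (Pearson's r = 0.996), Mtss1l (0.995), Rbbp9 (0.995), Esam (0.991) and Slc39a13 (0.988). Over all 21 libraries they were Zfp12 (0.980), the RNA-binding protein gene Msi2 (0.976), Nynrin (0.973), Telo2 (0.971) and Tmem201 (0.970). The libraries share genotype and cell type, so these values describe likeness only.

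Outside the stem cell compartment, the members were compared between CD11b+ and LSK cells of the same genotype, in 1 fit over the 21 libraries with 19555 genes tested. In MxCre mice, 4 of 10 were lower in bone marrow CD11b+ cells than in LSK (Mecom, Hlf, Procr and Cd34, or 6 without either bone marrow MxCre library), against 20.3% of all genes, and 9 of 10, all but Slamf1, were lower in spleen CD11b+ cells, against 22.4% of genes. In S3 mice, 8 of 10 were lower in bone marrow CD11b+ cells (not Slamf1 and Mllt3), against 12.7% of genes, and 5 of 10 in spleen CD11b+ cells (Mecom, Hlf, Fgd5, Tek and Cd34), against 11.6%. The labels tie S3 libraries to animals. With the animal as a block, Hoxb5 was no longer called in S3 bone marrow, and Ctnnal1 was also called lower in S3 spleen. Without the LSK library of animal 540, whose sex transcripts disagreed, Hoxb5 and Ctnnal1 were lost in bone marrow, and the spleen calls stayed. The same held without the LSK library of animal 815, so the loss was not particular to animal 540. Leaving out the bone marrow library of animal 815 lost Hoxb5 and Ctnnal1 there too. Without the bone marrow library of animal 540 Hoxb5 was lost there, and without its spleen library Fgd5 was lost in spleen. The shares of all genes above belong to the fit with all libraries and no block. When scaled by library size alone, the median log2 fold change over all genes moved from -0.28 to -1.34 and from -0.34 to -1.49 in MxCre bone marrow and spleen and from -0.08 to -0.64 and 0.02 to -0.59 in S3, and calls above LSK fell, from 3251 of 7219 to 1509 of 8991 genes and from 3760 of 8137 to 1735 of 9800 in MxCre bone marrow and spleen and from 2823 of 5301 to 1507 of 5742 and 3090 of 5349 to 1731 of 5902 in S3, so the directions below are relative to TMM scaling.

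Cd34, the most abundant member per length in LSK cells, was much lower in CD11b+ cells. It had 434 and 499.9 CPM in MxCre LSK cells, 6.53 and 8.35 in CD11b+ cells of the bone marrow and 5.34 and 1.61 in those of the spleen, and the log2 fold changes were -5.97 and -7.07 (adjusted p = 0.000486 and 0.000132, edgeR's quasi-likelihood test). In S3 mice they were -5.38 and -7.35. Mecom was close to absent from CD11b+ cells, with at most 15 counts in any of the 14 libraries. In CPM it was 1067-fold higher in LSK than in bone marrow CD11b+ cells of MxCre mice (95% interval 295 to 8808), 2817-fold higher than in their spleen CD11b+ cells (505 to 111279), and 1155-fold higher in LSK than in spleen CD11b+ cells of S3 mice (395 to 5603), with intervals that cover counting error only.

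Apart from Mecom, Hlf and Cd34, each member was not called in at least 1 of these comparisons, and Slamf1, Procr and Mllt3 are described here. Slamf1 was called lower than LSK in 0 of the 4 by edgeR's quasi-likelihood test, whereas limma-voom called it lower in bone marrow of both MxCre and S3 mice, as did edgeR in MxCre bone marrow without bone marrow MxCre 2. It was at 0 and 1.14 CPM in MxCre, 2.80 and 4.56 in Ptpn11D61Y/+ and 0.883, 0 and 2.49 in S3 540, 815 and 640 in bone marrow CD11b+ cells. In the spleen it was at 3.33 and 0.567, 5.11 and 6.64, and 2.33, 2.99 and 0.295 CPM in the same order, and within each genotype every CD11b+ library of either tissue lay below every LSK library. Procr was at or below 0.728 CPM in all 7 bone marrow CD11b+ libraries, but in spleen CD11b+ cells it had 5.08 and 1.98 CPM in MxCre, 15.7 and 11.0 in Ptpn11D61Y/+ and 13.2, 13.9 and 1.57 in S3 540, 815 and 640. In MxCre mice it was lower than in LSK by -6.01 in bone marrow and -2.94 in spleen on the log2 scale (adjusted p = 0.000937 and 0.0152, edgeR's quasi-likelihood test), and in S3 mice the values were -4.15 and 0.31 (adjusted p = 0.00138 and 0.748). The last value turned to -0.39 when scaled by library size alone. Mllt3 was at 3.43 and 19.6 CPM in MxCre, 24.4 and 25.4 in Ptpn11D61Y/+ and 20.5, 14.2 and 13.9 CPM in S3 540, 815 and 640 in bone marrow CD11b+ cells. Within each genotype they lay below LSK without overlap in MxCre (LSK 27.9 and 23.9) and Ptpn11D61Y/+ (51.1 and 43.7), and overlapped it in S3 (26.3, 20.2 and 18.4 in S3 540, 815 and 768). Its log2 fold change against LSK was -1.17 (adjusted p = 0.151) and -0.42 (adjusted p = 0.559) in bone marrow of MxCre and S3 mice, and -2.73 (adjusted p = 0.00568) and -0.19 (adjusted p = 0.800) in spleen, by edgeR's quasi-likelihood test. The MxCre value in bone marrow was -0.42 without MxCre 1 and -2.94 without MxCre 2 of the bone marrow.

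**Figure D4:**
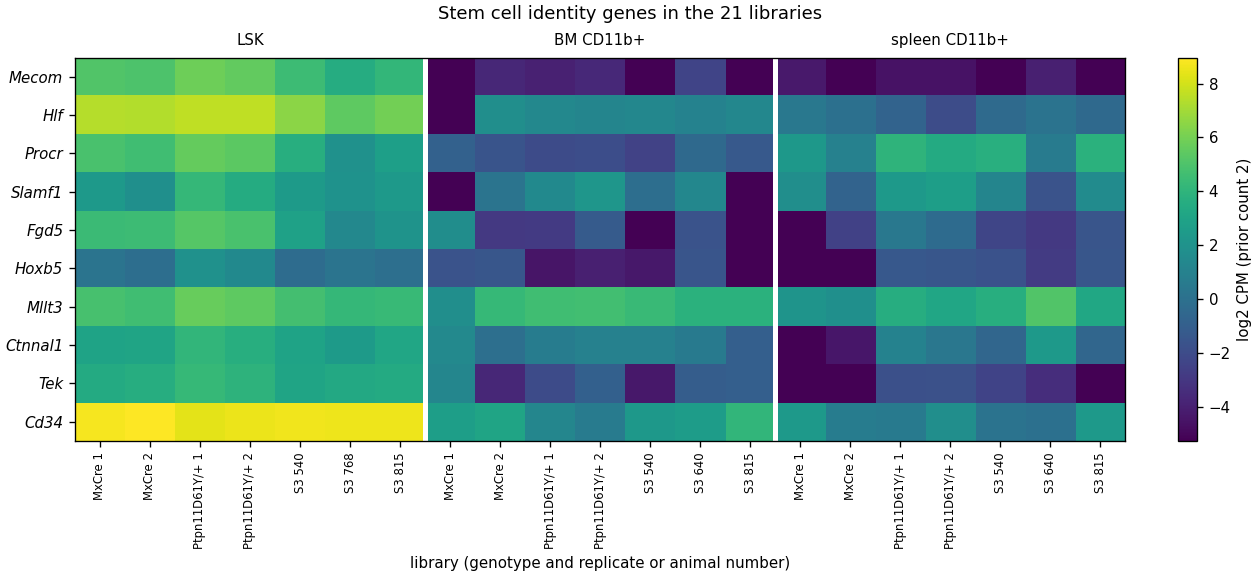
Levels of the 10 members in the 21 libraries as colour on a log2 CPM scale, with 1 row per gene and 1 column per library, ordered by cell population and genotype. Mecom, Hlf, Hoxb5, Ctnnal1, Tek and Cd34 are higher in each of the 7 LSK libraries than in any of the 14 CD11b+ libraries. The ranges of Procr, Slamf1, Fgd5 and Mllt3 overlap when genotypes are pooled.

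Within CD11b+ cells, the genotypes were compared to see whether the stem cell genes differed in the myeloid cells of diseased mice. By edgeR's quasi-likelihood test none of the 9 members that could be tested (all but Mecom) was called in bone marrow, against 0% of all 16133 genes both for S3 and for Ptpn11D61Y/+ against MxCre, nor in spleen, against 0% of 16661 genes in both. At an unadjusted p below 0.05 there were 771 and 1286 genes in bone marrow and 3185 and 3144 in spleen. DESeq2 called 120 and 74 genes in bone marrow and 1850 and 1829 in spleen, and limma-voom 0 and 0 in bone marrow and 5 and 0 in spleen.

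Bone marrow CD11b+ MxCre 1 stood apart from the other bone marrow libraries. It had 0 counts of Hlf, 3.43 CPM of Mllt3 against 13.9 to 25.4 in the rest, and 3.32 and 2.35 CPM of Fgd5 and Tek against at most 0.421 and 0.513. Slamf1 was at 0 counts as well, but also in S3 815. Its macrophage markers summed to 15817 CPM, its endothelial markers to 184 and its stromal markers to 369, and their part in the values was not tested. S3 lay above or below MxCre without overlap for 0 of 9 members, against 6.30% and 6.16% of genes. Ptpn11D61Y/+ lay above MxCre for Mllt3 and Slamf1 and below for Cd34, Hoxb5 and Procr, against 38.4% and 22.2% of genes. Without MxCre 1, 0 genes were called in either contrast.

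In spleen CD11b+ cells, several members were lowest in the MxCre libraries. Mllt3 had 4.24 and 3.53 CPM in MxCre, 12.0 and 8.85 in Ptpn11D61Y/+ and 12.6, 9.17 and 34.9 in S3 540, 815 and 640. The MxCre libraries lay below all others, with log2 fold changes of 2.28 in S3 (SE 0.667, adjusted p = 0.174, or 1.49 without S3 640) and 1.42 in Ptpn11D61Y/+ (adjusted p = 0.302), neither of which passed edgeR's quasi-likelihood test. Procr, given above, differed by 1.44 in S3 (SE 0.902, adjusted p = 0.399) and 1.92 in Ptpn11D61Y/+ (adjusted p = 0.326, edgeR's quasi-likelihood test), its S3 libraries being split between 640, the lowest, and the other two. Ctnnal1 had 0 and 1 counts in MxCre, 128 and 79 in Ptpn11D61Y/+ and 43, 33 and 444 in S3 540, 815 and 640, so that its level was 221 times that of MxCre in S3 (95% counting interval 39.4 to 8733, or 55.9 times without S3 640) and 144 times in Ptpn11D61Y/+ (25.6 to 5725), with adjusted p of 0.138 and 0.143 by edgeR's quasi-likelihood test. Hoxb5 had 0 counts in both MxCre libraries, 23 and 21 in Ptpn11D61Y/+ and 19, 17 and 10 in S3, which is at least 3.51-fold higher in S3 and at least 5.08-fold higher in Ptpn11D61Y/+ than a floor of 3 counts per library (adjusted p = 0.178 and 0.158, edgeR's quasi-likelihood test).

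Counted without overlap, S3 lay above MxCre in spleen for 3 of 9 members (Ctnnal1, Hoxb5 and Mllt3), against 21.7% of genes, and below for 0, against 14.6%. Ptpn11D61Y/+ lay above MxCre for 7 of 9, against 35.9% of genes, and below for Hlf, against 24.5%. In the fit over all 21 libraries Hoxb5 and Ctnnal1 were called higher than MxCre in both S3 and Ptpn11D61Y/+, with 819 and 1000 genes called, and DESeq2 called the same 2 members in both and Mllt3 in S3. Markers of other cells differed between these spleen libraries too, and their part in the results was not tested. Neutrophil markers, led by S100a9 in 6 of the 7 libraries, summed to 67313 and 125759 CPM in MxCre, 4371 and 7976 in Ptpn11D61Y/+ and 92465, 42863 and 39787 in S3 540, 815 and 640. B cell markers, mostly Cd79a and Cd79b, were at 220.4 and 96.1 CPM in MxCre, 1433 and 2024 in Ptpn11D61Y/+ and 891, 801 and 81.1 in S3 540, 815 and 640. For the B cell markers S3 640 was lowest and both Ptpn11D61Y/+ libraries were highest. Erythroid markers, mostly hemoglobin genes, were at 1936 and 787 CPM in MxCre, 3536 and 836 in Ptpn11D61Y/+ and 10793, 10015 and 21265 in S3 540, 815 and 640, so all S3 libraries were above all controls. Proliferation genes summed to 523 and 489 CPM in MxCre, 467 and 379 in Ptpn11D61Y/+ and 763, 699.8 and 2554 in S3 540, 815 and 640, so S3 640 stood apart. Endothelial markers, mostly Stab2, summed to 68.8 and 64.2 CPM in MxCre (3 of 10 at 0 in MxCre 1), 144 and 81.4 in Ptpn11D61Y/+ and 59.6, 57.7 and 26.6 in S3 540, 815 and 640.

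**Figure D5:**
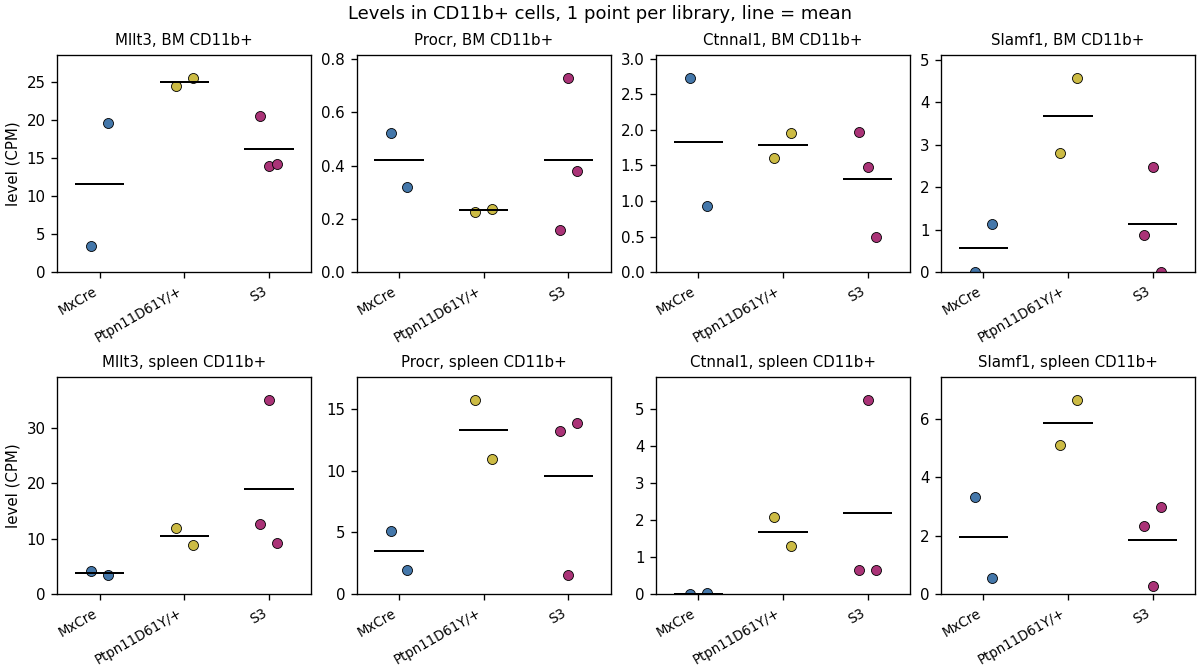
Levels of Mllt3, Procr, Ctnnal1 and Slamf1 in CD11b+ libraries from bone marrow (top) and spleen (bottom), in CPM by genotype, with 1 point per library and a line at the mean. In spleen, Mllt3 lies at 3.53 and 4.24 CPM in MxCre and at 8.85 to 34.9 CPM in the other 5 libraries.

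Whether the S3 difference was larger in CD11b+ than in LSK cells was tested directly, as an interaction in the fit over the 21 libraries. None of the 10 members was called for bone marrow, against 0% of genes (1587 at an unadjusted p below 0.05, 138 by DESeq2), nor for spleen, against 0.00511% of genes (1 gene called and 2614 at an unadjusted p below 0.05). Procr and Mllt3 had the spleen values 3.25 (SE 1.07, adjusted p = 0.252) and 2.54 (SE 0.826, adjusted p = 0.246) on the log2 scale by edgeR's quasi-likelihood test. Ctnnal1 and Hoxb5, at 0 or 1 counts in the spleen MxCre libraries, had adjusted p of 0.0925 and 0.218 by the same edgeR test. DESeq2 called 2 members (Hoxb5 and Ctnnal1) and 776 genes for spleen, and limma-voom 1 member (Ctnnal1) and 63 genes, against 4 genes by limma-voom for bone marrow.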

How the data were processed

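RNA was isolated with the RNeasy Micro kit and sequenced as paired-end Illumina libraries, made with a stranded mRNA kit according to the paper's methods. LSK cells had been sorted from lineage-depleted bone marrow, and CD11b+ cells were taken with magnetic beads. Per the submitters' processing notes the authors used bcl2fastq 2.20.0.422, FastQC 0.11.9, Trim Galore 0.6.5 and STAR 2.5.3a, and the genome was GRCm38 (mm10). The counting program, its annotation and its use of strand are not given in the sources used here. The deposited values are raw read counts per Ensembl gene, 1 file per library. Of 45706 gene IDs, 45143 matched a symbol in the reference annotation.

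The 10 members and all gene lists were chosen with earlier results of these data known. Genes named from a list were the 4 called ones with the largest absolute fold change per list and comparison, from which the text names some, and some genes are not reported here; genes of like pattern were the 5 with the highest Pearson's r.

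The tests were run on the raw counts with edgeR 4.0.16 under R 4.3.3 (filterByExpr with a minimum count of 10 and a minimum total of 15, robust quasi-likelihood fits, TMM factors from all 21 libraries). Genotypes were compared in separate fits for each cell population, cell populations and interactions in 1 fit over 21 libraries. Genes were called at an adjusted p below 0.05 (Benjamini-Hochberg). Log2 CPM used a prior count of 2, and a group at 0 was set to a floor of 3 counts per library. CPM per kb used the length of the union of annotated exons. Nothing in the labels says that control libraries came from separate mice, so p-values measure the spread between these libraries. Replicate libraries differed by more than sampling noise and none was counted as a copy.

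DESeq2 1.42.0, limma 3.58.1 (voom), RLE factors, library size alone, no filter on low counts, 1 fit over all libraries, other control groups, blocks and leaving out each library were tried. The models were tested on simulated data. For S3 against MxCre, 200 genes were set to a log2 fold change of 1, 2 or 4. They were drawn from genes with a mean of at least 1 CPM over the libraries of the population. Counts were drawn with the dispersions of the fit itself, so the recovery does not speak for members below that level. In LSK cells 125, 183 and 192 of the 200 were recovered. In bone marrow CD11b+ cells it was 0, 0 and 131, and in spleen CD11b+ cells 0, 0 and 162. Unchanged genes called were 11, 16 and 8 in LSK, 0, 0 and 8 in bone marrow and 1, 0 and 11 in spleen. Intervals of ratios are 95% and cover counting error only. Whether the numbers in the labels pair the control libraries of different genotypes is not known. Correlations of their deviations from the group means were -0.0406 in LSK, -0.0306 in bone marrow and -0.00185 in spleen. S3 libraries with 1 number carry the number of 1 animal, and their correlations ran from -0.0960 to 0.407. A value near 0 therefore cannot show that libraries are unpaired.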

Additional observations from a re-analysis of the deposited data

Results flagged for a closer look

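For 3 members, every library of a group moved one way in one cell population and the opposite way in another. Such opposite moves were common among all genes: over the 9 pairs of a contrast and cell populations they were found in 6 of 81 cases for the members (7.41%) and in 7.26% of cases for all genes tested in both populations, with 0.718% to 20.8% of genes in single pairs. These differences, given as the difference between the 2 populations' changes in mean log2 CPM, were not tested. For Hlf, Ptpn11D61Y/+ against MxCre was 0.28 in LSK and -1.56 in spleen CD11b+ cells, a difference of 1.84 (LSK minus spleen), and S3 against Ptpn11D61Y/+ was -1.67 in LSK and 1.14 in spleen CD11b+ cells, a difference of -2.82 in the same sense. All 7 spleen libraries had low Hlf levels, from 0.230 to 1.32 CPM. For Procr, Ptpn11D61Y/+ against MxCre was 0.745 in LSK, -0.747 in bone marrow CD11b+ cells and 2.04 in spleen CD11b+ cells, which gives 1.49 for LSK minus bone marrow and -2.78 for bone marrow minus spleen. For Hoxb5, the same contrast was 1.65 in LSK and -2.70 in bone marrow CD11b+ cells, a difference of 4.35 (LSK minus bone marrow). The bone marrow value rests on 3 counts in Ptpn11D61Y/+ and depends on the prior count, and the MxCre to Ptpn11D61Y/+ ratio there was 11.6 (95% counting interval 3.48 to 61.0). In spleen CD11b+ cells both MxCre libraries were at 0, and the level in Ptpn11D61Y/+ was at least 5.08-fold higher than a floor of 3 counts per library, or 2.34 on the log2 scale, which puts bone marrow minus spleen at -5.05 with the spleen at its bound. Bone marrow MxCre 1, which stood apart in other genes, is 1 of the 2 libraries behind the bone marrow values of MxCre.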

How the results depend on the processing

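Of the members' fold changes given above, under alternatives other than leaving out a library 328 kept direction and side of the threshold, 23 passed it newly, 19 no longer passed it and 8 changed direction, and when 1 library was left out these numbers were 199, 5, 26 and 8. The causes were not tested. Counts of called members below come without the share of all genes called in the same direction under each setting. A change in such a count is therefore not by itself a result about the members. Counts of called members in LSK S3 against MxCre (3 as reported) were 5 with RLE factors, library size alone or libraries with Ddx3y counts only, 1 with no filter, 9 with Ptpn11D61Y/+ as controls, 0 (6 genes) in 1 fit over 21 libraries, and 0 to 6 members and 1284 to 6194 genes with 1 library left out. In LSK Ptpn11D61Y/+ against MxCre (2) they were 6 with DESeq2 (1536 genes), 1 with limma-voom, 4 with no filter (793 genes) and 0 (12 genes) over 21 libraries, and 0 to 0 members and 2 to 13 genes with 1 library left out. In LSK S3 against Ptpn11D61Y/+ (9) they were 0 (19 genes) over 21 libraries and 5 to 9 members and 2730 to 7201 genes with 1 left out.

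In bone marrow CD11b+ cells DESeq2 called 120 genes for S3 and 74 for Ptpn11D61Y/+ against MxCre. In spleen, S3 against MxCre gave 3 members and 1850 genes with DESeq2, 5 genes with limma-voom, 4 with RLE factors and 4 with library size alone, 1 member and 384 genes with no filter, 2 members and 819 genes over 21 libraries, and 0 to 28 genes with 1 library left out. Spleen Ptpn11D61Y/+ against MxCre gave 2 members and 1829 genes with DESeq2, 1 and 438 with no filter and 2 and 1000 over 21 libraries. Bone marrow CD11b+ against LSK cells of MxCre mice gave 7 members with DESeq2 and 8 with limma-voom or library size alone. With library size alone the calls over all genes rose as well, as given above. The shares of all genes called under these settings are not given, so the member counts cannot be read alone. With 1 library left out, genes called against LSK were 2863 to 7002 and 4033 to 6069 (MxCre bone marrow and spleen) and 2950 to 7175 and 3006 to 6679 (S3). The interaction called 138 genes with DESeq2, 4 with limma-voom and 0 to 1 members and 0 to 438 genes with 1 library left out in bone marrow. In spleen it called 2 members and 776 genes with DESeq2, 1 and 63 with limma-voom, 14 genes with library size alone, 10 with no filter and 0 to 215 with 1 library left out.

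Direction changed for Procr in spleen CD11b+ against LSK cells of S3 mice (0.31; -0.23 with limma-voom, -0.39 with library size alone, -0.0621 to 0.82 with 1 library left out) and for Mllt3 there (-0.99 to 0.13 with 1 left out). Against both controls or Ptpn11D61Y/+ alone, Slamf1 in LSK S3 was -0.96 or -1.59, and against Ptpn11D61Y/+ Cd34 was 0.14 in LSK and Procr -0.48 in spleen. With Ddx3y libraries only, Mllt3 was 0.0295 and Ctnnal1 0.0108. Leaving out 1 library gave -0.27 to 0.12 for Hoxb5, -0.0387 to 0.48 for Slamf1 and -0.22 to 0.0763 for Ctnnal1 in LSK S3 against MxCre.

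With a replicate block on the label number, LSK Ptpn11D61Y/+ against MxCre gave 1 member (Slamf1, adjusted p = 0.0444, with Hoxb5 at 0.0579, edgeR's quasi-likelihood test) and 48 genes, and with a block on the animal the spleen interaction gave 0 genes. Whether the numbers pair these control libraries is not known, and the correlation of deviations (-0.0406 in LSK) cannot decide it. No paired analysis was possible because S3 and control mice share no number for S3 against either control. Depth limits Hoxb5 and Tek in spleen, with at most 23 and 17 counts in a library.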
